A study of Mus musculus with 6 samples.

Results

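Transcripts of 10 heat shock chaperones were followed in CD8 T cells of the mouse spleen: Hspa1a, Hspa1b, Hspa8, Hsph1, Hsp90aa1, Hsp90ab1, Dnaja1, Dnajb1, Hspd1 and Hspe1. They were picked by name as the cytosolic and mitochondrial folding genes of the heat shock response. All 10 were among the 17744 genes of the deposited table, and all 10 passed a filter of an FPKM of at least 1 in 3 libraries, as did 10655 genes in all. FPKM, a fragment count divided by gene length and by sequencing depth, is a level per length, so levels can be set side by side between genes.

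Cells carrying CD45, CD3 and CD8a were sorted from the spleen and sequenced as 6 RNA libraries. The 3 control libraries are labelled wt and control. In the other 3, the labels for genotype and treatment both read fus irradiation, here called ultrasound 1, 2 and 3; in the series title the ultrasound is focused and the spleen is the organ it addresses. The labels give no strain, age, dose or interval after treatment and do not say that each library came from its own animal, so the p-values measure the spread between these samples, which may be technical. Library depth was even, at 35024080 to 38113103 recovered reads. Other facts of the 6 libraries bear on what follows. Ultrasound 1 lay apart from ultrasound 2 and ultrasound 3, at -0.53 on the component that held 70.8% of the variance, against 33.2 and 39.7 for those libraries and -15.8 or less for the controls. Markers of CD8 T cells were high in all 6 libraries, with summed FPKM of 2800 to 3480 over the 9 of 10 listed markers that the table holds.

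Hsp70 proteins hold short greasy stretches of unfolded protein in a cycle driven by ATP. J-domain proteins such as those of Dnaja1 and Dnajb1 deliver clients and start ATP hydrolysis, and exchange factors such as that of Hsph1 reset the cycle. Hsp90 takes partly folded clients further, among them kinases that T cells need for signalling, and the chaperonin of Hspd1 with its lid Hspe1 encloses proteins in the mitochondrial matrix. Under heat or other protein damage the transcription factor Hsf1 binds heat shock elements, inverted repeats of the unit GAA or its complement TTC, and raises transcription of the inducible members within minutes.

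The letters of such elements near the members' starts are shown because they are the shared sequence feature of this response. RefSeq promoter sequences on GRCm38.p6 matched 7 of the 10 members: Hspa1a, Hspa1b, Hsph1, Dnaja1, Dnajb1, Hspd1 and Hspe1. Several genes have more than 1 RefSeq start, and a gene counts as holding a motif where any of its windows does. The 250 bases before each RefSeq start were searched on both strands for a pair of facing units, GAANNTTC or TTCNNGAA, each of which reads the same on either strand, and for 3 units in a row, GAANNTTCNNGAA or TTCNNGAANNTTC, which contain overlapping matches of the pair. A pair was found in 6 of the 7 members, all but Dnajb1, and in 14.5% of 27025 genes searched the same way. A run of 3 units was found in 2 of the 7, Hspd1 and Hspe1, and in 0.514% of genes. Counted by window, the pair was in 7 of the 12 members' windows and in 12.8% of 32851 windows, and the run of 3 in 2 of the 12 and in 0.466%. Each stretch below spans 30 bases, read 5′ to 3′ on the gene's own strand, with the matched units and their spacers in capitals.
Hspa1a: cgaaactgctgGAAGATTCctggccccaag
Hspa1b: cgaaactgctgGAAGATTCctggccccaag
Hsph1: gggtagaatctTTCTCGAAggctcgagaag
Dnaja1: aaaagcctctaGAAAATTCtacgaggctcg
Hspd1: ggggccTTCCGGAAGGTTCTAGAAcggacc
Hspe1: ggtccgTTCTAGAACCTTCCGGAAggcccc
The stretches lie at chr17:34972242-34972271 for Hspa1a and chr17:34959324-34959353 for Hspa1b, both on the minus strand. That of Hsph1 is at chr5:149636351-149636380 on the minus strand and that of Dnaja1 at chr4:40722333-40722362 on the plus strand. Hspd1 and Hspe1 share the stretch chr1:55088053-55088082, read on the minus strand for Hspd1 and on the plus strand for Hspe1. It lies before the inner of the 2 RefSeq starts of Hspd1, at 55087932, which faces away from the Hspe1 start at 55088148 with 215 bases between them. Before the outer start of Hspd1 the window has 0 matches. The capitals begin 144 bases before that inner start in Hspd1 and 89 before the start in Hspe1, and 104 before the only start in Hspa1a and Hspa1b. For Dnaja1 they begin 124 bases before 1 of its 3 starts, and the windows of the others have 0 matches. In Hsph1 the same letters begin 33 bases before 1 start and 54 before the other. Because of these alternative starts, the stretches of Hspd1 and Dnaja1 lie within, and that of Hsph1 overlaps, an exon of the same gene in GENCODE M21, whereas those of Hspa1a and Hspa1b lie outside any exon. A match of letters is a description of the window and not a measured binding site.

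The genes themselves lie on 7 chromosomes of GRCm38, all annotated as protein coding in GENCODE M21. Hspa1a is at chr17:34969190-34972156 and Hspa1b at chr17:34956436-34959238, both on the minus strand, with Hsp90ab1 further along the same chromosome at chr17:45567775-45573271. The others are Hspa8 at chr9:40800984-40810087, Hsph1 at chr5:149614287-149636376, Hsp90aa1 at chr12:110690605-110702728, Dnaja1 at chr4:40722150-40737149 and Dnajb1 at chr8:83608193-83612653. Hspd1 at chr1:55077835-55088243 and Hspe1 at chr1:55088132-55091307 overlap on opposite strands when the outermost annotated start of each is taken, so where reads were counted without regard to strand a few could belong to either.

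All 10 members had lower fitted levels in the ultrasound libraries, and 2 of them, Hsp90aa1 and Dnaja1, passed the test. The test was limma on log2(FPKM + 1) over all 10655 genes with Benjamini-Hochberg adjustment, in which 1.56% of genes were called lower at an adjusted p under 0.05. No member was called higher, as 6.55% of genes were. A further 7 members had an adjusted p between 0.0547 and 0.0965, and Hspa8 had 0.222. Unadjusted p was under 0.05 for 9 of 10, as it was, in the lower direction, for 8.57% of genes. In 8 of 10 members every ultrasound library lay below every control, as in 8.96% of all genes, the exceptions being Hspa8 and Hspd1. The median log2 change over the members was -1.17 against 0.09 over all genes tested. In the authors' deposited table, from DESeq2, 9 of 10 members have q under 0.05 and are lower, against 4.98% of its genes, and the exception is Hspa8 with q of 0.103. All 10 differences stayed below 0 under both other scalings and with each library left out, but with median-of-ratios size factors only Dnaja1 was called, and Hsp90aa1 had an adjusted p of 0.0516. Leaving out control 2, control 3, ultrasound 2 or ultrasound 3 left 0 genes called in either direction over the whole table, members and listed genes included, with 1962, 2154, 2058 and 1998 genes at an unadjusted limma p under 0.05. Limma called 0 members where the low-value filter was dropped or where ultrasound 2 and 3 had a term of their own, with 9 and 3 of 10 lower at an unadjusted p under 0.05, against 6.39% and 5.93% of the genes in those fits. In bulk RNA, fewer cells that make a transcript and less of it per cell cannot be told apart.

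**Figure D1:**
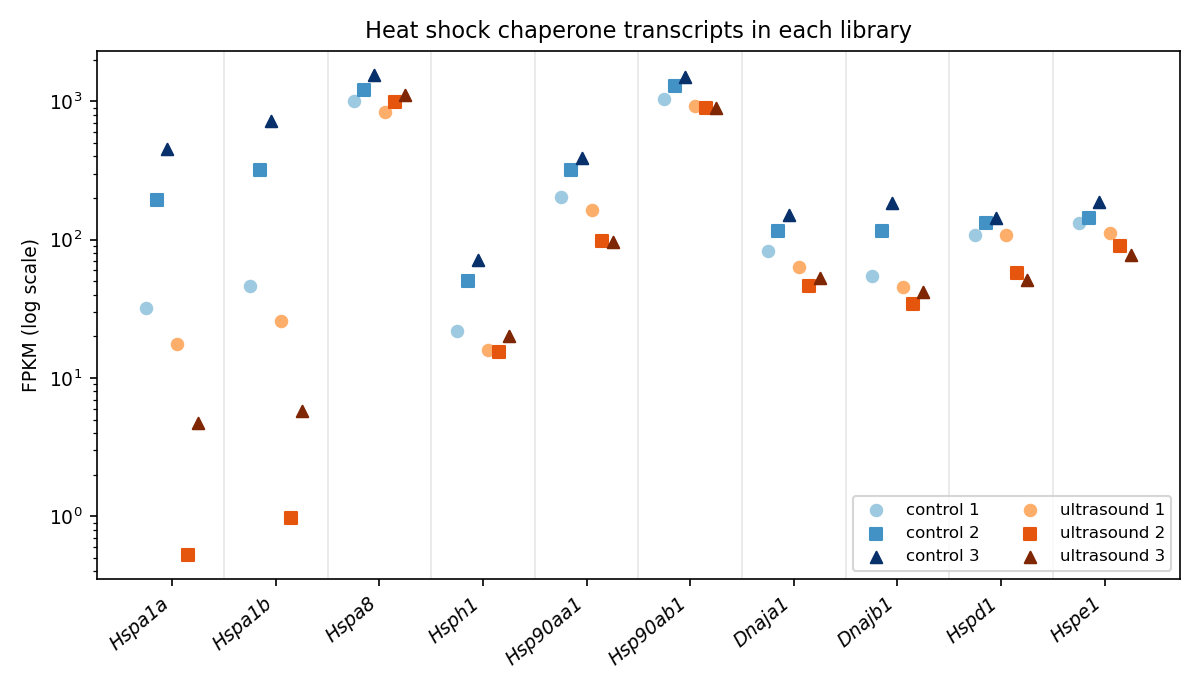
FPKM of each chaperone transcript on a log scale, with 1 point per library, controls in blues and ultrasound libraries in oranges. Hspa1a and Hspa1b run from 0.524 to 726 over the 6 libraries, whereas Hspa8 and Hsp90ab1 stay between 839 and 1557, and control 1 is the lowest control for every gene.

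The inducible Hsp70 genes, Hspa1a and Hspa1b, encode nearly the same protein and are the members that cells keep lowest until stress. Hspa1a stood at 32.2, 193 and 455 FPKM in control 1, 2 and 3, and at 17.6, 0.524 and 4.74 FPKM in ultrasound 1, 2 and 3. Hspa1b stood at 46.5, 321 and 726 FPKM in the controls and at 26.0, 0.978 and 5.83 FPKM in the ultrasound libraries. The groups did not overlap, yet control 1 lay nearer to ultrasound 1 than to the other controls. Ultrasound 2 was lowest for both genes, with 55 recovered reads of Hspa1a and 103 of Hspa1b, where control 3 had 44953 and 71959.

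The ultrasound means were 3.36% of the control mean for Hspa1a and 3.0% for Hspa1b. The log2 change of FPKM + 1 was -4.71 ± 1.17 (SE) for Hspa1a, with a limma adjusted p of 0.0563, and -4.97 ± 1.22 for Hspa1b, with 0.0553. These are the largest fitted differences among the members and also the least even ones, with an SD within the ultrasound group of 1.80 and 1.89 on the log2 scale. Without control 1 the limma adjusted p was 0.0394 for Hspa1a and 0.0379 for Hspa1b, and without ultrasound 1 it was 0.0366 and 0.0339. Without control 2, control 3, ultrasound 2 or ultrasound 3 it was 0.2, 0.187, 0.154 and 0.162 for Hspa1a. For Hspa1b it was then 0.2, 0.187, 0.155 and 0.165.

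Reads of these 2 genes cannot be fully separated. Their coding sequences match at 1915 of 1926 aligned positions, or 99.4%, and 47.1% of all 100-base windows of the Hspa1a transcript occur whole in Hspa1b. How reads that fit both copies were assigned is not given in the sources used here. The level of Hspa1b was 145, 167 and 159% of that of Hspa1a in the controls and 148, 186 and 123% in the ultrasound libraries, with no separation of the groups (exact two-sided permutation p = 0.80, also 0.80 after adjustment over 6 ratios). Summed to 1 feature, they stood at 78.7, 514 and 1180 FPKM in the controls and 43.6, 1.5 and 10.6 FPKM in the ultrasound libraries, with a log2 change of -5.07 ± 1.28 and a limma adjusted p of 0.0584.

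The copies lie 10 kb apart and also share their upstream sequence. The 250 bases before the start, on the minus strand, match at 247 positions and differ at 3, and both hold the pair of units shown in capitals.
Hspa1a, chr17:34972157-34972406: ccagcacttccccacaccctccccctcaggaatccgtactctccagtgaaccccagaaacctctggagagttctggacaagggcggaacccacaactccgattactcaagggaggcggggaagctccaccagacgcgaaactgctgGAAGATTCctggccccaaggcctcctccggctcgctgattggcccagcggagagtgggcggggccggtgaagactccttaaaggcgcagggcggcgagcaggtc
Hspa1b, chr17:34959239-34959488: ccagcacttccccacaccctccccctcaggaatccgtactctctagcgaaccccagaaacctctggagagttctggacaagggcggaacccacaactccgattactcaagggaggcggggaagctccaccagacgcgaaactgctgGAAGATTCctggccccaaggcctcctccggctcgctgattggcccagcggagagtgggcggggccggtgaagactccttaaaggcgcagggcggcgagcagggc
Hspa1l, the testis-type Hsp70 gene, starts 546 bases from the start of Hspa1a on the opposite strand. It fell below the filter and was looked at after the values of its neighbour were seen. Hspa1l was at 0.211, 1.38 and 3.50 FPKM in the controls and at 0.129, 0 and 0.0109 FPKM in the ultrasound libraries, the same order of controls as its neighbour, and 4.67% of the Hspa1a windows occur whole in it.

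Hspa8, the constitutive Hsp70 of the cytosol, was among the most abundant members in every library. Its level was 1012, 1212 and 1557 FPKM in the controls and 839, 986 and 1109 FPKM in the ultrasound libraries. Ultrasound 3 exceeded control 1, so the groups overlapped. The log2 change was -0.35 ± 0.18 and the limma adjusted p 0.222. Set against Hspa8, the inducible copies together made 7.77, 42.4 and 75.9% of its level in the controls and 5.19, 0.152 and 0.952% in the ultrasound libraries. These ranges did not overlap, and an exact two-sided permutation test of the ratio gave p = 0.10, the smallest that 3 against 3 allows, and 0.20 after Benjamini-Hochberg adjustment over the same 6 ratios.

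Hsph1, also known as Hsp110, serves Hsp70 as an exchange factor. Its level was 22.0, 50.5 and 70.9 FPKM in the controls and 16.1, 15.5 and 20.2 FPKM in the ultrasound libraries. The groups did not overlap, and control 1 lay close to ultrasound 3. The log2 change was -1.28 ± 0.39 with a limma adjusted p of 0.0881, and without control 1 it was -1.75 with 0.0140. With any other single library left out the limma adjusted p was 0.0784 to 0.268. As a share of Hspa8, Hsph1 made 2.18, 4.16 and 4.56% in the controls and 1.92, 1.57 and 1.82% in the ultrasound libraries (exact permutation p = 0.10, adjusted 0.20).

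The J-domain members differed in whether they passed the test. Dnaja1, a J-domain partner of Hspa8, stood at 82.4, 115 and 151 FPKM in the controls and at 63.4, 46.2 and 53.0 FPKM in the ultrasound libraries, with no overlap. Dnaja1 fell, with a log2 change of -1.05 ± 0.23 and a limma adjusted p of 0.0430. Dnajb1, or Hsp40, the J-domain partner that the heat shock response induces, stood at 54.5, 115 and 184 FPKM in the controls and at 45.5, 34.4 and 41.7 FPKM in the ultrasound libraries. Its fitted difference was larger, at -1.36 ± 0.40, but its controls were more spread and the limma adjusted p was 0.0833. Without control 1 the difference was -1.83 with an adjusted p of 0.0177. With any other single library left out the limma adjusted p of Dnajb1 was 0.0544 to 0.253. The call of Dnaja1 was lost without control 2, control 3, ultrasound 2 or ultrasound 3, at limma adjusted p of 0.179, 0.147, 0.136 and 0.140. Dnajb1 was 5.38, 9.51 and 11.8% of Hspa8 in the controls and 5.43, 3.49 and 3.76% in the ultrasound libraries, where ultrasound 1 exceeded control 1 and the exact permutation p was 0.20, or 0.30 adjusted.

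The cytosolic Hsp90 genes are a pair, of which Hsp90aa1 is the more inducible and Hsp90ab1 the more constant. Hsp90aa1 stood at 204, 319 and 387 FPKM in the controls and at 164, 97.7 and 96.1 FPKM in the ultrasound libraries. Hsp90ab1 stood at 1045, 1286 and 1490 FPKM in the controls and at 925, 897 and 891 FPKM in the ultrasound libraries. Neither gene's groups overlapped, and the ultrasound libraries were close to each other for Hsp90ab1 and split for Hsp90aa1, with ultrasound 1 nearest to the controls.

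Hsp90aa1 fell, with a log2 change of -1.34 ± 0.29 and a limma adjusted p of 0.0441. That call was lost with median-of-ratios size factors, at an adjusted p of 0.0516, and without control 2, control 3, ultrasound 2 or ultrasound 3, at adjusted p of 0.184, 0.169, 0.138 and 0.146. For Hsp90ab1 the change was -0.48 ± 0.14 with an adjusted p of 0.0762, which became 0.0419 without control 1 and 0.0284 without ultrasound 1. Without control 2, control 3, ultrasound 2 or ultrasound 3 the limma adjusted p of Hsp90ab1 was 0.236, 0.221, 0.209 and 0.22. As a share of Hsp90ab1, Hsp90aa1 made 19.5, 24.8 and 26.0% in the controls and 17.7, 10.9 and 10.8% in the ultrasound libraries. The shares did not overlap (exact permutation p = 0.10, adjusted 0.20).

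The mitochondrial chaperonin Hspd1, or Hsp60, and its co-chaperonin Hspe1, or Hsp10, share a stretch printed above. Its capitals hold 2 overlapping runs of 3 units, and it lies before the Hspe1 start and before the inner start of Hspd1. Hspd1 stood at 107.9, 132 and 144 FPKM in the controls and at 108.4, 57.6 and 50.9 FPKM in the ultrasound libraries. Hspe1 stood at 132, 145 and 188 FPKM in the controls and at 111, 89.5 and 77.2 FPKM in the ultrasound libraries. Ultrasound 1 was level with control 1 for Hspd1, so its groups overlapped, whereas ultrasound 2 and ultrasound 3 were below every control for both genes.

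The log2 change was -0.89 ± 0.28 for Hspd1 and -0.74 ± 0.18 for Hspe1, with limma adjusted p of 0.0965 and 0.0547. Without ultrasound 1 they were -1.22 and -0.88, with adjusted p of 0.00073 and 0.00632. In that fit limma called 2094 genes lower and 3633 higher over the whole table. With any other single library left out the limma adjusted p was 0.154 to 0.27 for Hspd1 and 0.0768 to 0.185 for Hspe1. The controls were close for both, with an SD of 0.21 and 0.26 on the log2 scale. Hspd1 was 81.4, 91.4 and 76.2% of Hspe1 in the controls and 97.2, 64.3 and 65.9% in the ultrasound libraries, and these ranges overlapped (exact permutation p = 0.60, adjusted 0.72).

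**Figure D2:**
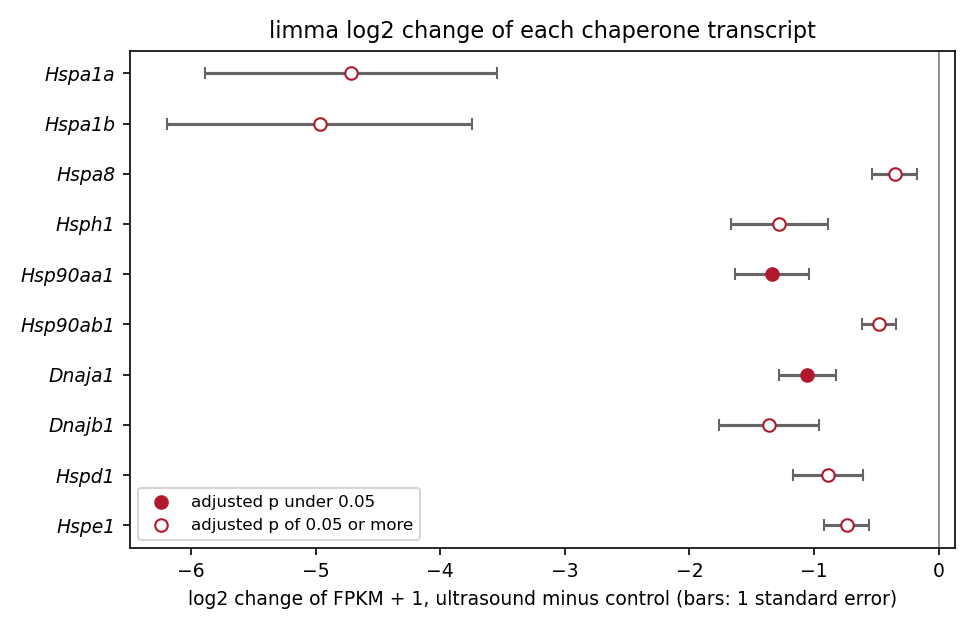
Log2 change of FPKM + 1, ultrasound minus control, for each chaperone transcript, with bars of 1 standard error from limma and filled points where the adjusted p is under 0.05. All 10 points lie below 0, Hsp90aa1 and Dnaja1 are filled, and the bars of Hspa1a and Hspa1b are the widest at 1.17 and 1.22.

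The order of mean levels differed between the groups mainly in the inducible Hsp70 copies. Among the controls the means ran from Hsp90ab1 at 1274 ± 223 FPKM (SD, n = 3) and Hspa8 at 1260 ± 276 through Hspa1b at 364.5 ± 342, Hsp90aa1 at 303 ± 92.5, Hspa1a at 227 ± 214, Hspe1 at 155 ± 29.4, Hspd1 at 128 ± 18.3, Dnajb1 at 118 ± 64.8 and Dnaja1 at 116 ± 34.5 down to Hsph1 at 47.8 ± 24.6. Neighbours in this order overlapped in range except between Hspa8 and Hspa1b and between Dnaja1 and Hsph1. In the ultrasound libraries the order was Hspa8 at 978 ± 135, Hsp90ab1 at 904.5 ± 17.8, Hsp90aa1 at 119 ± 38.5, Hspe1 at 92.7 ± 17.4, Hspd1 at 72.3 ± 31.5, Dnaja1 at 54.2 ± 8.64, Dnajb1 at 40.6 ± 5.66, Hsph1 at 17.2 ± 2.57, Hspa1b at 10.9 ± 13.3 and Hspa1a at 7.61 ± 8.89. Here neighbours did not overlap between Hsp90ab1 and Hsp90aa1, between Dnaja1 and Dnajb1 and between Dnajb1 and Hsph1. By its mean, Hspa1b thus stood at the third place among the controls and at the ninth among the ultrasound libraries. Control 1 and ultrasound 1, however, had the same order of members. In them Hspa1b, at 46.5 and 26.0 FPKM, lay below Dnajb1, at 54.5 and 45.5 FPKM.

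The controls themselves differed in these genes more than in most others. Control 1 was the lowest and control 3 the highest control for all 10 members, an order found in 20.4% of all genes tested. From control 1 to control 3 the level differed 15.6-fold for Hspa1b, 14.2-fold for Hspa1a, 3.38-fold for Dnajb1 and 3.22-fold for Hsph1, and by 1.33-fold to 1.90-fold for the other 6. Ranked by the SD of log2(FPKM + 1) among the controls, Hspa1b was first of 10655 genes at 2.02 and Hspa1a was next at 1.93. Dnajb1 ranked 19 and Hsph1 ranked 23, so that 4 of 10 members were among the first 100 genes. The remaining members ranked from 258, for Hsp90aa1, to 1327, for Hspd1. The median control SD was 0.454 over the members and 0.096 over all genes.

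**Figure D3:**
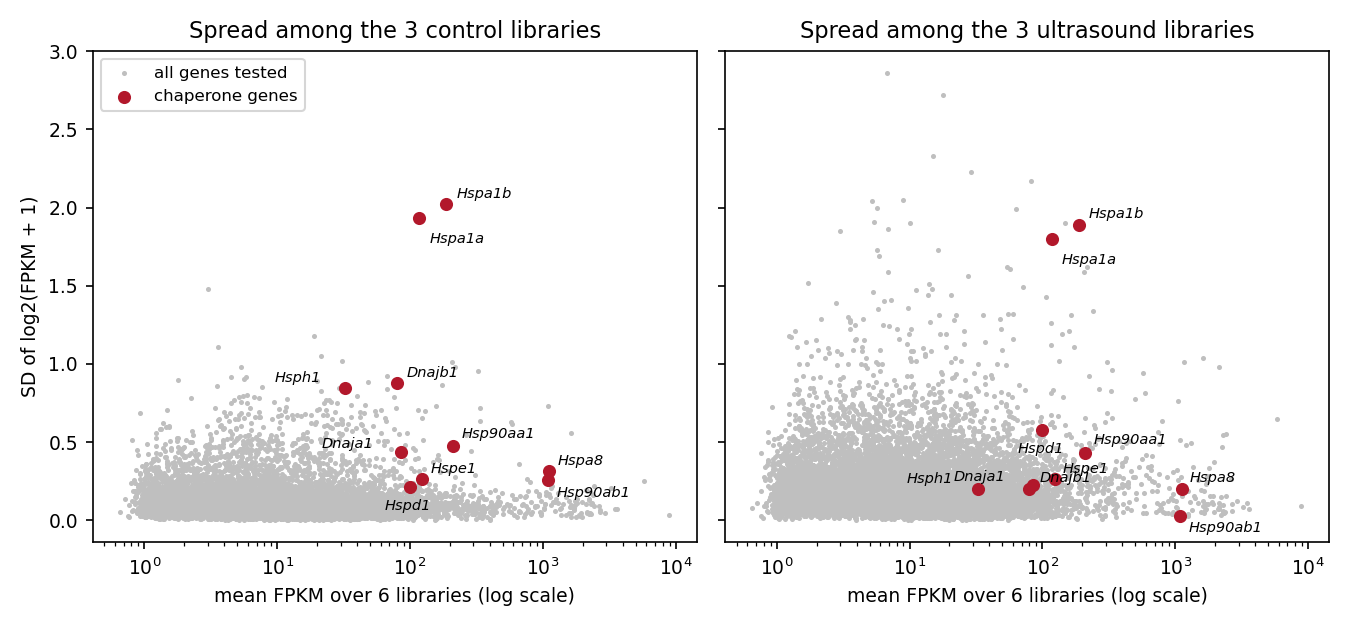
SD of log2(FPKM + 1) among the 3 control libraries (left) and the 3 ultrasound libraries (right) against mean FPKM on a log scale, with all 10655 genes in grey and the chaperones in red. Hspa1b and Hspa1a stand above every other gene among the controls, at 2.02 and 1.93, while among the ultrasound libraries they rank 13 and 16 and the other members lie at 0.58 or less.

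Among the ultrasound libraries the members were more alike. Their median SD was 0.244, against 0.185 over all genes, and in 8 of 10 members the SD was larger among the controls, as in 24.6% of all genes. The exceptions were Hspd1 and Hspe1. Ultrasound 1 was the highest ultrasound library in 8 of 10 members, all but Hspa8 and Hsph1. Even so, ultrasound 1 was below every control in 9 of 10 members, all but Hspd1, against 23.1% of all genes. Of all reads, the members took 0.655, 0.969 and 1.35% in control 1, 2 and 3 and 0.552, 0.520 and 0.552% in ultrasound 1, 2 and 3. The median member, as log2(FPKM + 1) minus its own control mean, was at -0.49, 0.09 and 0.41 in the controls and at -0.83, -1.34 and -1.19 in the ultrasound libraries.

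The wider folding machinery held calls in both directions. Of 93 further folding genes on 10 lists, 89 were in the table and 83 were tested, with a median log2 change of 0.02. Limma called 3 lower and 2 higher, where 1.56% and 6.55% of all genes were called. Below every control were 14 of the 83, or 16.9%, and above every control 19, or 22.9%, against 8.96% and 25.9% of all genes. At an unadjusted p under 0.05, 13 were lower and 17 higher, where 8.57% and 22.6% of all genes were. Voom called 5 lower and 0 higher, against 2.06% and 3.31% of all genes, and the authors' deposited table has 13 lower and 3 higher at q under 0.05, against 4.98% and 7.3% of its genes. Dnajb4, a J-domain gene of the cytosol, had a log2 change of -2.0 ± 0.38 and fell (limma adjusted p = 0.0333), from 8.16, 13.2 and 16.2 FPKM in the controls to 4.67, 1.55 and 1.42 FPKM. It was the only call among 14 other J-domain genes, whose median was 0.01. Their most abundant members, Dnajc8, Dnajc7 and Dnajc9, had differences of 0.27, 0.03 and -0.02, none past the test.

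Among partners of Hsp90, limma called 0 of 14 in either direction, and the median was -0.18. At an unadjusted limma p under 0.05, 4 were lower and 1 higher, against 8.57% and 22.6% of all genes. Below every control were 4 and above every control 1, against 8.96% and 25.9%. Voom called 2 lower, against 2.06%, and the authors' deposited table has 3 lower at q under 0.05, against 4.98% of its genes. The most abundant, Cdc37, which brings kinases to Hsp90, was at 119, 117 and 113 FPKM in the controls and 106, 141 and 143 FPKM in the ultrasound libraries. Stip1, which links Hsp70 to Hsp90, and Ahsa1, which speeds the ATPase of Hsp90, had differences of 0.15 and 0.18. Nearest to the threshold were Cacybp at -0.78 and Chordc1 at -0.62, with limma adjusted p of 0.0508 and 0.0516, named after their values were seen.

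For the 5 other Hsp70 family genes tested limma called 0 in both directions (1 lower at an unadjusted p under 0.05, 0 by voom) with a median of -0.20, the most abundant being Hspa4 at -0.20, Hspa14 at -0.02 and Hspa13 at -0.43. The 7 nucleotide exchange factors also gave 0 by limma and by voom (1 lower at an unadjusted p under 0.05), with a median of 0.03, led by Bag6, Bag1 and Hspbp1 at 0.03, 0.15 and 0.13. Bag3, an exchange factor of the heat shock response named after its values were seen, was at 5.84, 12.3 and 18.3 FPKM in the controls and 6.78, 5.61 and 7.70 FPKM in the ultrasound libraries, with a limma adjusted p of 0.241. Its controls ran in the same order as those of the members. So did those of the small heat shock gene Hspb1, also named after its values were seen, at 0.0941, 2.06 and 4.65 FPKM against 0.283, 0.0886 and 0.203 FPKM, which fell below the filter. Of the small heat shock genes 1 was tested, Hspb6 at 0.30, and it did not pass.

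The list of heat shock factors, on which Hsbp1 also stands, gave 0 calls by limma and by voom among 4 tested, with a median of 0.11. At an unadjusted limma p under 0.05, 1 was higher, and it was Hsbp1 rather than a heat shock factor. Hsf1, the factor that binds the elements above, was at 27.5, 29.4 and 32.7 FPKM in the controls and at 30.6, 31.9 and 36.5 FPKM in the ultrasound libraries. These overlapped, with a difference of 0.14 ± 0.11 and a limma adjusted p of 0.389. Hsbp1, which binds Hsf1, had 0.43 and Hsf4 0.08, neither past the test.

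The cytosolic chaperonin TRiC, which folds actin and tubulin, had 0 of 8 subunits called by limma or voom, with 2 lower at an unadjusted p under 0.05. Its median was -0.21, 3 of 8 subunits were below every control, as were 8.96% of all genes, and 3 were lower at q under 0.05 in the authors' deposited table. The most abundant subunits Cct2, Cct5 and Cct4 had -0.40, -0.04 and -0.21. Prefoldin, which hands clients to TRiC, had 0 of 6 called by limma or voom, with 1 lower at an unadjusted p under 0.05, and a median of -0.04. Its most abundant subunits Pfdn5, Pfdn6 and Vbp1 had 0.09, 0.15 and -0.85. Of 10 other mitochondrial chaperone and protease genes limma and voom called 0, with 1 higher at an unadjusted p under 0.05, and the median was 0.06. Hspa9, the mitochondrial Hsp70 that works upstream of Hspd1, had -0.19, Trap1, the mitochondrial Hsp90, had 0.10, and the protease Lonp1 had -0.07.

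ER chaperones gave calls both ways among 14 tested, 2 lower and 2 higher, with a median of 0.31. At an unadjusted limma p under 0.05, 9 were higher and 2 lower, and 7 lay above and 2 below every control, against 25.9% and 8.96% of all genes. The authors' deposited table has 3 higher and 2 lower at q under 0.05. Hspa5, the Hsp70 of the ER, fell by 0.74 ± 0.17 (limma adjusted p = 0.0447), from 416, 452 and 443 FPKM to 333, 214 and 247 FPKM. Dnajb9, an ER J-domain gene, fell by 2.13 ± 0.49 (adjusted p = 0.0476). Pdia6, a disulfide isomerase, rose by 0.54 ± 0.12 (adjusted p = 0.0440), and Creld2, an ER stress gene, rose by 0.74 ± 0.15 (adjusted p = 0.0406). Voom on recovered reads called the same number lower, 2, but 0 of the 14 higher.

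The genes most like the median profile of the members were sought among 5503 other tested genes with a mean FPKM of at least 10, by the root mean square distance on the log2 scale over the 6 libraries. Nearest were Tob2 at 0.085, Ccdc117 at 0.134, Siah2 at 0.162, Ier2 at 0.165 and Btg2 at 0.166, where the median gene was at 0.913. Tob2, an antiproliferative gene, stood at 31.8, 43.5 and 50.2 FPKM in the controls and 23.5, 16.5 and 18.1 FPKM in the ultrasound libraries. Ier2 and Btg2 are immediate early genes, which cells switch on within minutes of a stimulus.

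Of 14 immediate early genes on a list, 7 were called lower and 0 higher, 12 lay below every control, and the median log2 change was -1.26, where 1.56% of all genes were called lower and 8.96% lay below every control. The 7 were Fosb, Jun, Junb, Egr1, Ier2, Atf3 and Btg2, with log2 changes from -2.44 for Fosb to -1.03 for Btg2 and limma adjusted p from 0.0311 to 0.0470. The median of all 14 per library was at -0.16, -0.09 and 0.24 in the controls and at -0.77, -1.92 and -1.23 in the ultrasound libraries, relative to the control mean. As for the chaperones, control 1 was the lowest and control 3 the highest control, and ultrasound 2 was the lowest library. What these genes share with the chaperones was not tested.

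**Figure D4:**
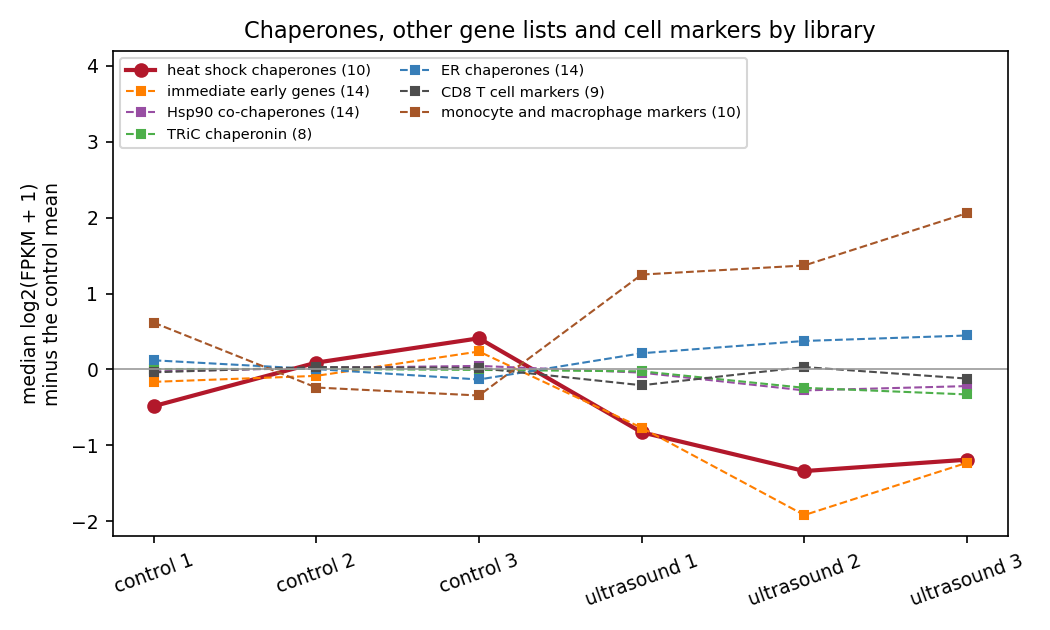
Median log2(FPKM + 1) of each gene list minus its control mean, by library, with the number of genes in brackets; lines only join the points of a list. Chaperones and immediate early genes lie below 0 in all 3 ultrasound libraries, monocyte and macrophage markers lie above 1, and CD8 T cell markers stay between -0.21 and 0.03.

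Markers of some other cells also differed between the groups. Of 10 monocyte and macrophage markers, 7 were called higher in the ultrasound libraries and 9 lay above every control, with a median log2 change of 1.59. Of all genes, 6.55% were called higher and 25.9% lay above every control. Voom on recovered reads called 4 of the 10 higher, where it called 3.31% of all genes. Their summed FPKM was 759, 353 and 334 in the controls and 1900, 1970 and 3410 in the ultrasound libraries, led by Lyz2 at 207 to 499 and at 1430 to 2720 FPKM. Of 8 neutrophil markers, 4 were called higher by limma and 4 by voom, with summed FPKM of 489, 144 and 160 in the controls and 1710, 522 and 548 in the ultrasound libraries. For both lists control 1 was the highest control, and it was the lowest control for the chaperones. Among the ultrasound libraries the neutrophil sum was highest in ultrasound 1, also the highest ultrasound library in 8 of 10 chaperones. The monocyte and macrophage sum was highest in ultrasound 3.

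Summed B cell markers were at 346, 225 and 224 FPKM in the controls and at 167, 883 and 767 FPKM in the ultrasound libraries, with 0 of 7 called by limma, by voom or at an unadjusted p under 0.05. NK cell markers had 1 of 5 tested called higher, Klrb1c, with 2 higher and 1 lower at an unadjusted limma p under 0.05. Their sums were 57.9, 63.2 and 67.3 FPKM in the controls against 47.9, 233 and 126 FPKM. Gzma and Eomes, named after their values were seen, made much of these sums. Gzma was at 21.9, 18.9 and 25.5 FPKM against 18.9, 178 and 82.3 FPKM. Eomes was lower, at 32.0, 39.9 and 36.4 FPKM against 19.6, 31.7 and 24.3 FPKM. Dendritic, erythroid and platelet markers had 0 called by limma among 2, 5 and 2 tested, with 0, 1 and 1 at an unadjusted p under 0.05. CD8 T cell markers had 0 of 9 called by limma or voom and 1 lower at an unadjusted p under 0.05, with a median log2 change of -0.09. The part of other cells in the chaperone results was not tested.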

How the data were processed

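RNA of sorted splenic CD8 T cells was sequenced in 6 libraries, grouped by their titles. For the authors' part, the submitters' processing notes list HISAT2, HTSeq, DESeq2, R 3.2.0 and mm10, with no role or order. Per the file headers, the authors deposited FPKM for each library and gene. The deposited table also gives, as a signal, the authors' DESeq2 normalized counts averaged per group and over the series. It also holds the fold change as a ratio, its log2, and the p-value and q-value of the authors' comparison. A shorter deposited table, a subset of its genes, was not used. Changes computed here are differences of log2(FPKM + 1), so those of low genes are understated.

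The 10655 genes that reached an FPKM of 1 in 3 or more libraries were fitted with limma 3.58.1 (trend, robust; R 4.3.3), without a block, and p-values were adjusted over all of them by Benjamini and Hochberg's method with a threshold of 0.05. In simulated data with 200 changed genes the fit recovered 99.5% with 16 false calls over 10691 genes at a dispersion of 0.01, and 56.0% with 8 false calls over 10695 genes at 0.05. The simulation gave every gene the same dispersion and had no library lying apart, as ultrasound 1 does. These rates therefore need not hold for the data. Whole reads per library were recovered from the FPKM and the authors' group means: 100% of 42750 values under 200 reads lay within 0.05 of a whole number. Reads carry no molecular identifiers.

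Genes named are the 10 members, listed genes with adjusted p under 0.05 or otherwise up to 3 per list with the highest mean FPKM, and the 5 genes most like the members. The text says where a gene was chosen otherwise. The members and lists were chosen with earlier results of these data known. Positions are from GENCODE M21 and promoter sequences from RefSeq, both on GRCm38. Each result was recomputed with other size factors, other filters, another pseudocount, a non-robust fit, replicate numbers as a block, ultrasound 2 and 3 given their own term, Hspa1a and Hspa1b summed, voom on recovered reads, the authors' values, and each library left out. Giving ultrasound 2 and 3 their own term leaves ultrasound 1 alone against the controls. Sequences were aligned with Biopython 1.88 and figures drawn with matplotlib 3.10.9. Tables were made in Python 3.11.15 (scipy 1.17.1, pandas 2.3.3, numpy 2.4.6).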

Additional observations from a re-analysis of the deposited data

How the results depend on the processing

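The 10 members' fitted changes, and their median of -1.17, stayed below 0 under all 17 alternatives that hold them, with medians from -1.44 to -0.83. Of 166 member results under the alternatives, 134 kept their side of the threshold, 15 lost and 17 gained a call, and 0 turned direction. All 15 losses fell on Hsp90aa1 and Dnaja1, the only members called in the main result. These counts and the median of -0.83 include the fit with ultrasound 2 and 3 given their own term, which rests on ultrasound 1 alone. No member was called higher in any run.

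The number called was less steady, and the cause was not tested. Members called lower numbered 2 in the main result and 1 with median-of-ratios size factors (Hsp90aa1 at limma adjusted p 0.0516). They numbered 0 with no filter on low values (9 at an unadjusted limma p under 0.05) and 9 in the authors' deposited table. Where ultrasound 2 and 3 had their own term, the difference rested on ultrasound 1 alone, so the number called in that fit is not given. Leaving out single libraries gave 0 to 7: 7 without control 1 or ultrasound 1, and 0 without control 2, control 3, ultrasound 2 or ultrasound 3. Without control 2, control 3, ultrasound 2 or ultrasound 3 in turn, 9, 8, 8 and 8 members were lower at an unadjusted limma p under 0.05. Of all 10655 genes, 1962, 2154, 2058 and 1998 had such a p in either direction. A filter of FPKM of at least 1 in every library drops Hspa1a and Hspa1b and leaves 8 members.

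Over all genes, 166 were called lower and 698 higher. With median-of-ratios size factors these were 144 and 293, with upper-quartile factors 192 and 431, with voom on recovered reads 220 and 353, when ultrasound 2 and 3 had their own term 47 and 103, with no filter 0 and 0 (4216 at an unadjusted limma p under 0.05), and the authors' deposited table has 884 lower and 1295 higher. Leaving out single libraries gave 0 to 2094 lower and 0 to 3633 higher: without ultrasound 1, 2094 and 3633, and without control 1, 65 and 502. The median log2 change of all genes was 0.09 in the main result and -0.01, 0.00 and -0.01 with median-of-ratios, upper-quartile and voom scaling. Other folding genes called lower numbered 3, against 1, 0, 5 and 13 with median-of-ratios factors, no filter, voom and the authors' deposited table. With single libraries left out they numbered 0 to 28, with 28 without ultrasound 1.

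No pairing by replicate number was seen: deviations from the group means correlated at -0.04, 0.05 and 0.06 for numbers 1, 2 and 3. With 3 libraries a group and ultrasound 1 apart from the other ultrasound libraries, this cannot exclude a pairing. With the replicate number as a block, 0 members, 0 genes in either direction and 0 other folding genes were called. At an unadjusted limma p under 0.05 were 10 members, all lower, and 3249 of 10655 genes in either direction. The limma adjusted p of the members ran from 0.104 to 0.156.

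Depth limits only the lowest values, such as the 55 reads of Hspa1a in ultrasound 2. Reads shared by Hspa1a and Hspa1b limit the split between the copies, and 3 libraries a group limit every ratio test to an exact p of 0.10.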
